A study of Rattus norvegicus with 2 samples.

Results

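The genes described here are 10 members of the Notch pathway: the receptor genes Notch1, Notch2 and Notch3, the ligand genes Jag1 and Dll1, and the target genes Hes1, Hes5, Hey1, Hey2 and Nrarp. They were chosen by symbol, and each was read from 1 array feature that the platform annotation gives to that gene alone; all 10 were found among 18171 genes measured. The samples were 2 single colonies, No.4 and No.8, of the rat glioma line C6, each measured once on a whole-transcript expression array. Both were described as undifferentiated, and both carried the same treatment text, CHIR99021 (an inhibitor of the kinase GSK3) at 20 µM with forskolin (an activator of adenylyl cyclase) at 100 µM for 35 days, in medium with 10% fetal bovine serum. Whether the RNA was taken before or after that treatment is not stated, and no untreated or treated partner was analysed here. Each colony is 1 culture of 1 cell line on 1 array, so no test, standard error or p-value can be given, and a difference between the colonies cannot be told apart from one between cultures or hybridizations.

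Notch receptors are cell surface proteins that are cleaved after a ligand of the Jagged or Delta-like family binds them from a neighbouring cell. The freed intracellular part enters the nucleus and joins the DNA-binding protein RBPJ and a Mastermind coactivator to switch on target genes, among them the HES and HEY repressors and Nrarp, which encodes a small inhibitor of the same complex. In the nervous system this pathway keeps neural progenitors undifferentiated by holding down proneural genes, and it favours glial over neuronal fates.

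The 2 members at the centre of the results, Hes1 and Nrarp, differ in the letters upstream of their start sites, and they are shown with Hes5 and Hey2, genes of the HES and HEY families, for comparison. Each line gives the 250 bases before the annotated start in RefSeq (build GRCr8), 5′ to 3′ on the gene's strand, and capitals mark TGGGAA, the core of the RBPJ motif, on either strand.

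Hes1, chr11:84213046-84213295, minus strand: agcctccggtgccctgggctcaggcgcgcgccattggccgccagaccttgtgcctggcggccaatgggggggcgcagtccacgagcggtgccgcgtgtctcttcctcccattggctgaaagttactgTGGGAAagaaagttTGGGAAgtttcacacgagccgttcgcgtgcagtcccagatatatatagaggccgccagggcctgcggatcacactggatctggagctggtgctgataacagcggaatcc

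Nrarp, chr3:28390495-28390744, plus strand: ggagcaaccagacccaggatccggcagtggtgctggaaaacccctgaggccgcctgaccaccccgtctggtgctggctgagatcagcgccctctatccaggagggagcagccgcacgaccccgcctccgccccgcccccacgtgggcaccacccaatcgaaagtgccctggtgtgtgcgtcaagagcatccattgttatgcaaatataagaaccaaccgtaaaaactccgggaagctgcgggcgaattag

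Hes5, chr5:170804327-170804576, plus strand: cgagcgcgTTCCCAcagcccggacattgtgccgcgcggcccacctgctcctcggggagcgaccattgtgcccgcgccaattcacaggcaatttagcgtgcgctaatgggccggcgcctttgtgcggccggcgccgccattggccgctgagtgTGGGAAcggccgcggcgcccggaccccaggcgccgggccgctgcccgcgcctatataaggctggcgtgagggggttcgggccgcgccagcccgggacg

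Hey2, chr1:28640850-28641099, plus strand: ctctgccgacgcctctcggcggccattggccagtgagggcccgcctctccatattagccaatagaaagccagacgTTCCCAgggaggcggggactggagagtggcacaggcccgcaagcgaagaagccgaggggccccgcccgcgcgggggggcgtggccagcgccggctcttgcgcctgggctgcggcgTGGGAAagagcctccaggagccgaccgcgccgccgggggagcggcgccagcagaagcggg

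The Hes1 window held TGGGAA at 2 places, beginning 123 and 109 bases before the start and both in the direction of the gene. The first of them was also a match to the longer form GTGGGAA, which contains the core. The Hes5 and Hey2 windows held 2 cores each, 1 in each direction: 242 and 98 bases before the start in Hes5, 175 and 60 in Hey2. The Nrarp window held no match to the core, which says only that these letters are not in this window. RefSeq promoter windows were matched for 9 of the 10 members, all but Hey1, and 4 of the 9 (Hes1, Hes5, Hey2 and Dll1) held the core, each at 2 places. Over all 33469 promoter windows of that length, 22.1% held the core and 2.71% held it at 2 or more places. The longer form was matched in the same 4 member windows, at 2 places in Hes5 and 1 each in Hes1, Hey2 and Dll1. It was matched in 5.27% of all windows.

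Motifs that HES and HEY proteins can bind were searched on both strands in the same windows. CACNAG, the N box, was present at 4 places in the Hes1 window and at 2 in that of Nrarp, against 37.2% of all windows with a match and 8.02% with 2 or more. CACGNG was present at 4 places in Hes1 and 1 in Nrarp, against 22.5% with a match and 4.92% with 2 or more. At 171 and 97 bases before the Hes1 start the same letters matched both motifs. Of the 9 member windows, 4 held CACNAG and 5 held CACGNG. That of Notch1 held CACNAG at 4 places and CACGNG at 1, and that of Notch3 held CACNAG at 1. Those of Notch2 and Jag1 held CACGNG at 3 and 2 places. Neither motif was found in the Hes5, Hey2 and Dll1 windows. The GC content was 61.6% in the Hes1 and Nrarp windows and 73.2% in those of Hes5 and Hey2, above the median of 51.2% over all windows.

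Levels are given as deposited, on a log2 scale, so a difference of 1 is 2-fold. A difference is the No.8 level less the No.4 level. Levels of different genes come from different probes and are not compared with each other. Without a detection call, 2 guides to background were used: a floor of 4.33, the median of all values, which 11070 genes reached in at least 1 colony, and 5.67, the level at the 99th percentile over 1184 olfactory receptor genes, a family that few cells outside the nose express. Quartiles of the arrays were nearly equal (medians 4.34 and 4.31 in No.4 and No.8). Of the markers examined, Vim was at 12.57 and 12.60, Nes at 9.54 and 9.94, and S100b at 8.24 and 8.46, while Sox2, at 9.08 and 8.44, was 1.56-fold higher in No.4. Gfap, the astrocyte filament gene, was 2.07-fold higher in No.8 but under 5.67 in both colonies (4.11 and 5.17). It was past the floor in No.8 alone, and 1.79-fold higher there with the floor as the lower level. Sox9 was below the floor in both colonies. Of other cell types, 0 of 6 microglia and macrophage markers, 1 of 4 endothelial, 3 of 5 mural and fibroblast, 3 of 4 oligodendrocyte and 2 of 5 neuron markers were past the floor. Among them Pdgfrb, a pericyte and fibroblast receptor gene (6.48 and 7.55, 2.10-fold), and Tek, an endothelial receptor gene (4.84 and 5.97, 2.19-fold, and 1.23-fold with 5.67 as the lower level), were higher in No.8, as Hes1 and Nrarp were; the defining endothelial markers Cdh5, Vwf and Emcn were below the floor in both colonies, as were the fibroblast markers Dcn and Lum. The summed linear level of the mural and fibroblast markers was 142 and 240 units in No.4 and No.8, that of the endothelial markers 73.1 and 107. Each rise came almost wholly from 1 gene, Pdgfrb or Tek. The median difference was 0.068 over the 5 mural and fibroblast markers and 0.052 over the 4 endothelial ones. Of the mural markers near the floor, Myh11 was at 4.27 and 4.34 and Rgs5 at 4.48 and 4.28. Both samples were colonies of 1 glioma line, so these genes were read as RNA of the whole colony and not of sorted cells. The part of such cell types in the Notch differences was not tested. In single arrays, fewer cells of a type and less RNA per cell cannot be told apart.

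Hes1 and Nrarp were more than 2-fold higher in colony No.8, while the receptors, the ligands and the other targets differed by less than 1.5-fold. Thus 2 of the 10 members reached 2-fold, both in the same direction. Of the others, Notch3, Jag1, Dll1, Hes5 and Hey2 were under 5.67 in both colonies, so a lack of difference cannot be read from them. Over all genes past the floor, 5.47% differed by at least 2-fold in either direction and 2.91% were at least 2-fold higher in No.8; over all genes measured, the shares were 3.43% in either direction, 1.81% higher in No.8 and 1.62% higher in No.4. With 10 members, 2 genes decide this count. Of the members, 6 were higher in No.8 and 4 in No.4, and the median difference was 0.24, beside 0.030 over all genes measured. Over the 8 members past the floor, 4 were higher in each colony and the median was 0.047, beside 0.038 over all genes past the floor. Among them Jag1 passed the floor through No.8 alone and Dll1 through No.4 alone, so the filter bears on their directions.

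**Figure D1:**
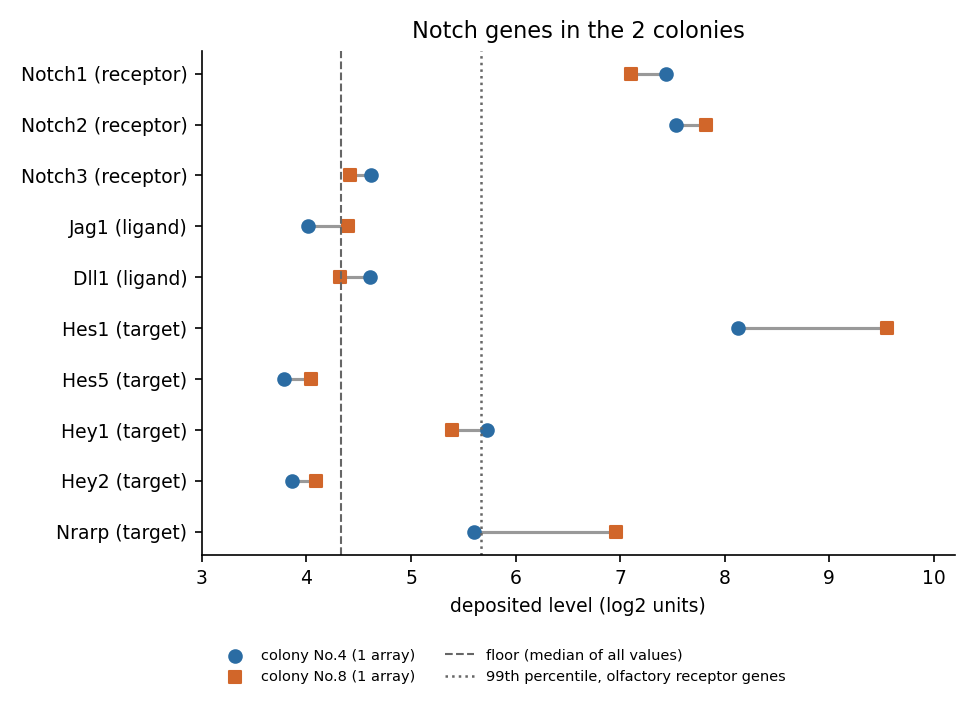
Deposited level on the log2 axis for the 10 Notch genes in colony No.4 (circles) and colony No.8 (squares), 1 array each, with lines at the floor of 4.33 and at 5.67. Hes1 and Nrarp have the widest gaps, while Hes5 and Hey2 lie below the floor in both colonies.

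Hes1, a basic helix-loop-helix repressor of proneural genes that also represses its own promoter, read 8.13 in colony No.4 against 9.55 in colony No.8. Both levels were well past 5.67. The difference of 1.42 is 2.68-fold. Among the other 11069 genes past the floor, 141 (1.27%) were higher in No.8 by at least as much. Of the 1104 genes whose mean level lay within 0.5 of that of Hes1, 12 (1.09%) were, and the median size of the difference among these 1104 was 0.26.

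Nrarp, an ankyrin repeat protein that binds the Notch intracellular domain and lowers its activity, read 5.60 in colony No.4 against 6.96 in colony No.8. The lower value was just under 5.67 and the higher one clearly past it. The difference of 1.36 is 2.57-fold in deposited values and 2.44-fold when the No.4 level is raised to 5.67. As large a difference in the same direction was found for 154 (1.39%) of the other genes past the floor and for 38 (1.59%) of the 2388 genes of like mean level. With 64 added to both levels on the linear scale, which shrinks differences of dim genes, the Nrarp difference was 0.75 and no longer reached 2-fold, whereas that of Hes1 was 1.24.

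The differences of Hes1 and Nrarp were 0.059 apart. Both exceeded that of Hey1, the remaining target past the floor, by 1.76 and 1.70, so these 3 target genes did not differ between the colonies by a common amount. No replicate spread is available for these gaps. As a yardstick from the same arrays, 162 genes had 2 features past the floor, and the differences read from the 2 brightest features of a gene disagreed by a median of 0.14, with 90% of genes under 0.54. Of the 3 such genes whose brightest feature passed 2-fold, the second feature went the same way in 3 and passed 2-fold in 1. None of the 10 members has a second feature, so this agreement could not be examined for them.

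**Figure D2:**
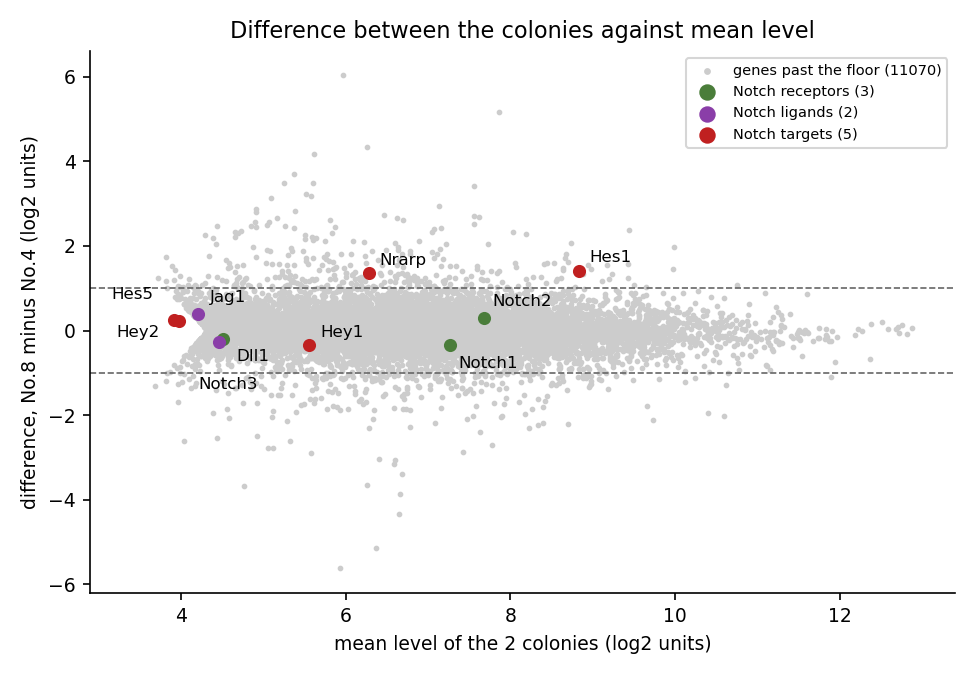
Difference between the colonies (No.8 minus No.4, log2 units) against the mean level of both, for 11070 genes past the floor (grey) and the 10 Notch genes coloured by role, with dashed lines at 2-fold. Hes1 and Nrarp lie above the upper line, and the other 8 lie inside the grey band between the lines.

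Hey1, a HES-related repressor, was at 5.73 in No.4 and 5.39 in No.8, a difference of -0.34 in the direction opposite to Hes1. It lay near 5.67 in both colonies and differed by 1.04-fold when the No.8 level was raised to 5.67. Hes5, which acts with Hes1 in neural progenitors, was at 3.79 and 4.04, and Hey2 at 3.86 and 4.09. Both were below the floor in both colonies, so their levels cannot be told from background and no fold is given.

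The receptor genes differed little. Notch1 was at 7.44 in No.4 and 7.10 in No.8, a difference of -0.34 (1.27-fold higher in No.4). Notch2 was at 7.54 and 7.82, a difference of 0.29 (1.22-fold higher in No.8). These 2 receptors, past 5.67 in both colonies, went in opposite directions, and neither stood out from genes of like level: 41.2% of 2461 such genes differed at least as far as Notch1 in either direction, and 47.2% of 2137 at least as far as Notch2. Notch3 was at 4.61 and 4.42, past the floor but under 5.67 in both colonies. Notch4, a receptor best known from endothelial cells and not among the 10 members, was at 5.38 and 5.24, also under 5.67.

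Both ligand genes lay near the floor. Jag1, which encodes Jagged 1, was at 4.01 in No.4 and 4.40 in No.8, past the floor in No.8 alone. Dll1, which encodes Delta-like 1, was at 4.61 and 4.33 and just under the unrounded floor in No.8. All these levels were under 5.67, so a difference in these ligand RNAs cannot be told from background. The other ligand genes and their relatives were in the same range: Jag2, Dll3, Dll4, Dlk1, Dlk2 and Dner were all under 5.67 in both colonies, 3 of the 6 were past the floor, and 0 differed by 2-fold.

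Genes acting between ligand and target were read from lists by role that leave out the 10 members. Over the 8 lists of receptors, ligands, processing, sugar transferases, ubiquitin and endocytic regulators, coactivators, corepressors and further targets, 53 of 63 genes were measured and 45 were past the floor. Of these 45, 1 (Kat2b) passed 2-fold in favour of No.8 and 1 (Tle4) in favour of No.4, beside 2.91% and 2.57% of all genes past the floor. Tle4 was under 5.67 in both colonies and did not reach 2-fold with levels raised to the floor. The median difference over the 45 was 0.21, beside 0.038. RBPJ and the other 9 genes of these lists without a feature of their own are not analysed here.

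Genes for receptor maturation and cleavage were past the floor for all 6 measured members, and 0 reached 2-fold. Psen2, a catalytic subunit of gamma-secretase, was at 3.76 and 4.41, under 5.67 in both colonies. Adam17, a protease that can make the outer cut, was at 7.52 and 8.05, and the gamma-secretase subunit genes Psenen and Ncstn were at 9.48 and 9.03 and at 8.39 and 8.62. Among these, Adam17 and Ncstn were higher in No.8 and Psenen in No.4. Of the sugar transferases that modify the receptor's outer domain, Poglut1, which adds glucose, had the largest difference (6.68 and 7.46, a difference of 0.78), Pofut1, which adds fucose, was at 6.87 and 7.12, and the fringe gene Lfng was at 7.74 and 7.70. Among ubiquitin ligases and endocytic regulators 0 of 8 genes past the floor reached 2-fold. Mib1, the ligase that lets ligands be pulled into the sending cell, was at 8.27 and 7.80, and Neurl1b at 5.62 and 6.05. Dtx3 was at 7.10 and 6.81 and Numbl at 6.69 and 6.46, while Numb, an inhibitor of the receptor, was at 6.62 and 6.81. Of these 8 genes past the floor, 4 were higher in each colony.

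Of the 6 coactivator genes measured, 5 were higher in No.8, beside 53.2% of all genes past the floor, and the median difference was 0.33, beside 0.038. Kat2b, an acetyltransferase also called PCAF, read 6.41 in No.4 against 7.55 in No.8 (2.19-fold) and was the 1 gene of the list at 2-fold, beside 2.91% of genes past the floor. Crebbp, another acetyltransferase, was at 7.67 and 8.09, and Maml2, a Mastermind gene, at 7.22 and 7.60, whereas Maml1 was at 6.60 and 6.43. Corepressor genes went both ways, 7 of 12 higher in No.8 and 5 higher in No.4. Tle4, which encodes a Groucho-type partner of HES proteins, was at 4.82 in No.4 and 3.12 in No.8. The second level was below the floor and both were under 5.67. With the floor as its No.8 level the excess in No.4 was 1.40-fold, and from 5.67 there is none. Its difference thus cannot be told from background. Its relative Tle3 went the other way (7.03 and 7.67), and Ctbp2, another corepressor gene, was at 7.79 and 7.21.

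**Figure D3:**
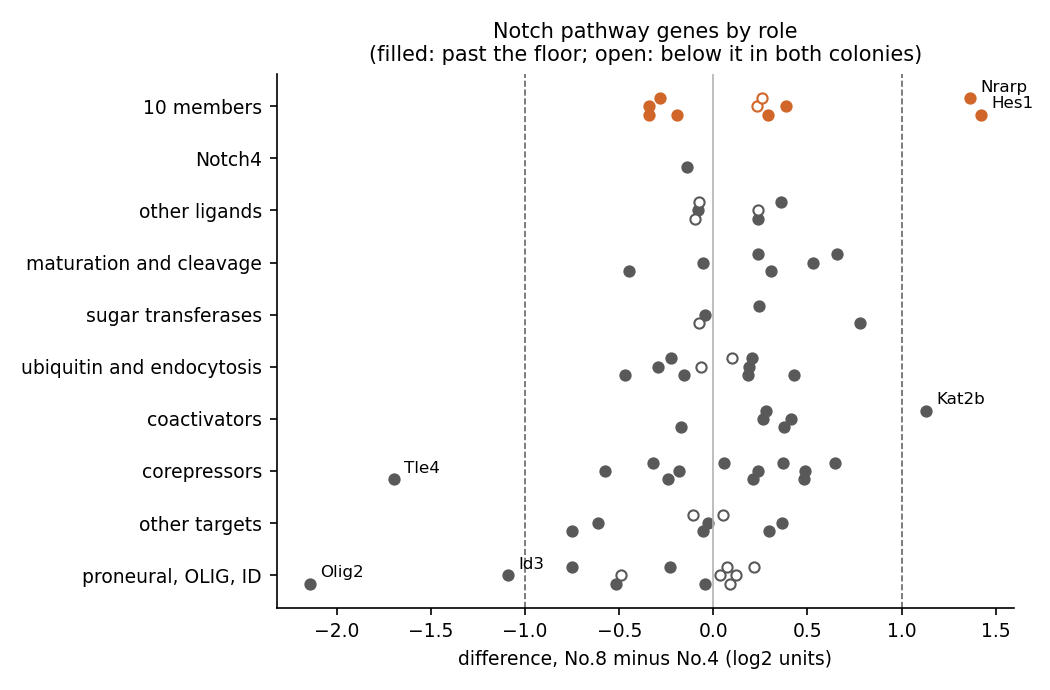
Difference between the colonies (No.8 minus No.4, log2 units) for each measured gene of the Notch pathway, in rows by role, with dashed lines at 2-fold; filled points are past the floor in at least 1 colony and open points are below it in both. Hes1, Nrarp and Kat2b lie past the line on the right, and Tle4, Olig2 and Id3 on the left.

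Further HES and HEY genes and reported targets gave 0 of 6 genes past the floor at 2-fold. Hes6, which unlike Hes1 promotes neuronal differentiation, was at 6.17 and 5.56, a difference of -0.61. Ccnd1, which encodes cyclin D1, was at 10.91 and 10.16, a difference of -0.75, and Myc was at 8.19 and 8.49. Heyl was at 4.97 and 4.95, under 5.67 in both colonies, and Fabp7, a radial glial target, was below the floor in both.

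Proneural and related helix-loop-helix genes, several of which HES1 is known to repress, included 2 genes more than 2-fold higher in colony No.4, Olig2 and Id3, beside 2.57% of genes past the floor and 1.62% of all genes measured. Over the 12 measured genes, 7 were lower and 5 higher in No.8, with a median difference of -0.14. The 6 past the floor (Neurog2, Olig1, Olig2, Id1, Id3 and Id4) were each lower in No.8, as were 45.5% of all genes past the floor; Olig2 passed it through No.4 alone, so the filter bears on its direction. Olig2, a factor of the oligodendrocyte lineage, was at 6.36 and 4.22, below the floor in No.8, and its excess in No.4 was at least 4.09-fold with the floor, or 1.61-fold with 5.67, as the lower level. Id3, an inhibitor of helix-loop-helix factors, was at 7.28 and 6.19 (2.13-fold higher in No.4), and Id1 at 7.15 and 6.40. Neurog1, Neurog3, Atoh1, Neurod1 and Neurod4, all neuronal determination or differentiation factors, were below the floor in both colonies. Neurog2, near the floor in both, differed by -0.043.

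Position on the chromosome was looked at after the values had been seen, with gene order taken from RefSeq (GRCr8) and the 10 nearest genes past the floor on each side. Around Hes1 on chromosome 11, the 20 neighbours had a median difference of -0.033 and 8 were higher in No.8 (10 under centring or quantile normalization). Hes1 was the only gene of that stretch to pass 2-fold in favour of No.8, and Bcl6, a transcriptional repressor gene, was 2.08-fold higher in No.4 (7.16 and 6.10). Around Nrarp on chromosome 3, 18 of the 20 neighbours were higher in No.8 (17 under the loess), with a median of 0.28 and a range from -0.40 to 0.55, beside 53.2% of all genes past the floor higher in No.8. None of them reached 2-fold, and Nrarp exceeded the highest of them. Notch1 lies on the same chromosome with 43 genes past the floor between it and Nrarp; its 20 neighbours had a median of 0.10, and Notch1 itself was at -0.34. DNA copy number was not measured, and its part in these values was not tested.

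**Figure D4:**
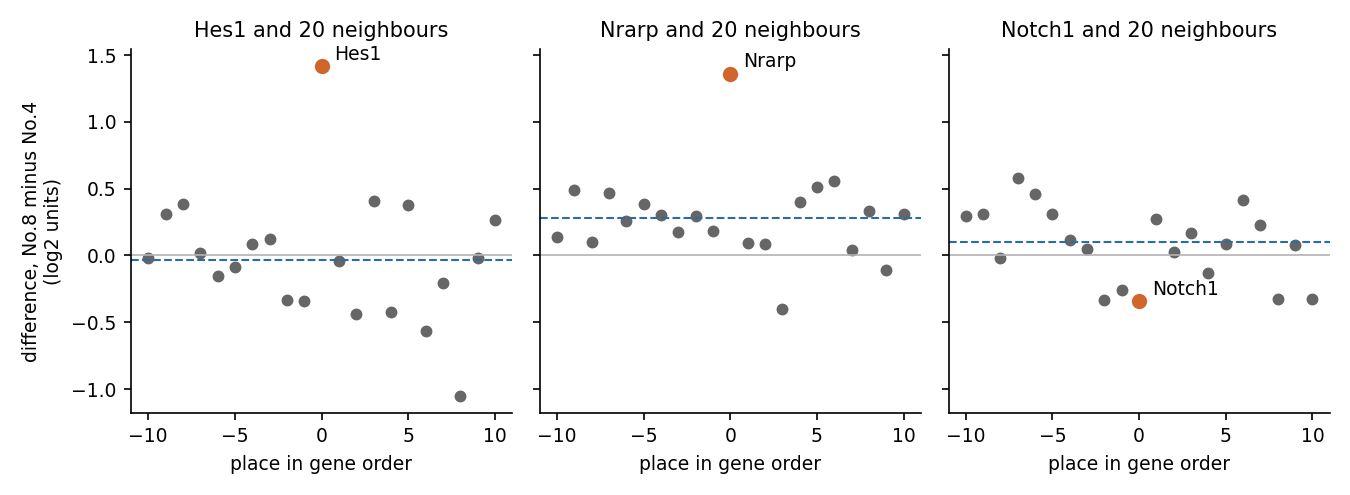
Difference between the colonies (No.8 minus No.4, log2 units) for Hes1, Nrarp and Notch1 (coloured) and the 10 nearest genes past the floor on each side (grey), by place in gene order; the dashed line is the median of the 20 neighbours. Hes1 and Nrarp lie above all their neighbours, and Nrarp's neighbours lie mostly above 0.

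Under 3 other scalings of the arrays (centring on the median, quantile normalization and a loess curve of differences along the mean level), each of the 10 members kept the direction of its difference. The quartiles of the arrays were nearly equal and these scalings moved the differences only slightly, so the kept directions add little. They do not set the dim members apart from background. The Hes1 difference ranged from 1.42 to 1.44 and that of Nrarp from 1.31 to 1.38. Raising both levels to 5.67 brought the differences of Notch3, Jag1, Dll1, Hes5 and Hey2 to 0, since all their levels were under it.

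**Figure D5:**
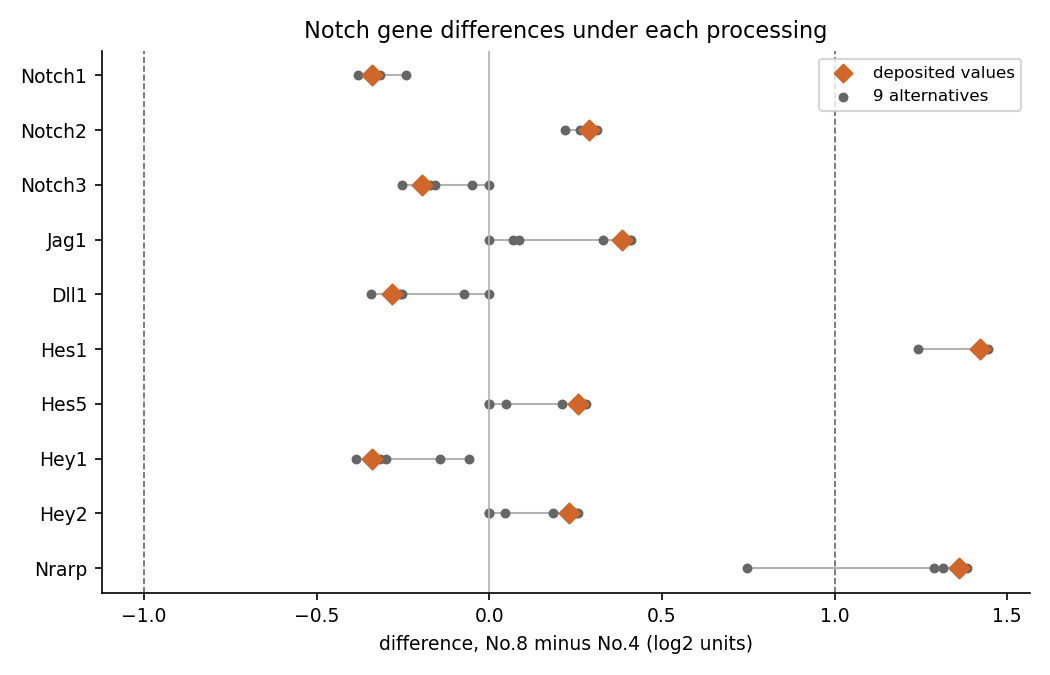
Difference between the colonies (No.8 minus No.4, log2 units) of each Notch gene from the deposited values (diamonds) and under 9 other ways of scaling, flooring or choosing features (points), with dashed lines at 2-fold. Hes1 stays above 1 throughout, Nrarp falls to 0.75 in 1 case, and the dim genes reach 0.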

How the data were processed

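Total RNA of 2 C6 colonies was measured with 1 biotin-labelled array each, per the labels' protocols. The authors deposited 1 value per feature for 36685 features; their processing steps are among the details not given in the sources. The deposited values were taken as log2 levels. No label names the log base; base 2 was taken since the highest value, 13.3, exceeds the natural log (11.1) of the largest 16-bit reading. No further scaling was applied.

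Features with exactly 1 gene symbol in the platform annotation (18511) were used; 575 with several and 17599 with none were left out. The feature with the highest mean level stood for a gene. Groups came from the colony number in the titles. Past the floor means at least 4.33, the median of all values, in at least 1 colony; 2-fold means a difference of at least 1. The number of arrays limits the precision and no test was made. Named genes were all members, every listed gene at 2-fold, up to 4 per list with the largest differences, and the markers, some of which are given only as counts; others (Numb, Ncstn, Maml1, Heyl, Fabp7, Neurog2, Id4, the dim ligand and proneural genes and the neighbour Bcl6) were chosen after their values were seen. The members and lists were chosen with earlier results of these data known. Alternatives covered scaling, floors, an offset of 64, feature choice and fold size. Gene identifiers of 18394 features were found in RefSeq (GRCr8). The 2-fold rule was tried in separate code on simulated data with known differences, and a motif search on a made-up sequence. Python 3.11.15, pandas 2.3.3 and statsmodels 0.14.6 were used.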

Additional observations from a re-analysis of the deposited data

How the results depend on the processing

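The count of 2 members at 2-fold (Hes1 and Nrarp) was the same under 12 of 14 alternatives, 3 of which, on the choice of feature, could not move it because each member has 1 feature. Raising levels to the floor could not move it either, since Hes1 and Nrarp were above the floor in both colonies. Removing the floor could add only Hes5 and Hey2, which differed by 0.26 and 0.23. Centring adds the same small amount to each difference. The count was 1 with 64 added on the linear scale and 0 at a threshold of 3-fold. The count of other pathway, proneural and ID genes at 2-fold was 4 (Kat2b, Tle4, Olig2 and Id3). It was 3 with levels raised to the floor or with a floor at the olfactory 99th percentile, 2 with a floor at the upper quartile, 2 with levels raised to the olfactory 99th percentile, 0 with 64 added, 10 at 1.5-fold and 2 at 3-fold. The median difference of the members, 0.24, was 0.82 over those past a floor at the upper quartile, 0 with levels raised either to the floor or to the olfactory 99th percentile, and 0.047 with 64 added; these settings drop or compress the dim members by construction. Of the 60 values of single members under alternatives other than feature choice, 44 moved by less than 0.14, the median disagreement between features of a gene. The other 16 moved more, and 0 changed the sign of a member at 2-fold. Many of the 44 were fixed in advance. Raising levels leaves a member already above the raised level unchanged, and centring shifts every member by the same small amount. Raising levels or adding 64 cannot reverse a sign. No paired analysis was possible because each colony has 1 array. Leaving out a replicate was not possible for the same reason. Signal over background is unknown, which limits Notch3, Jag1, Dll1, Hes5 and Hey2 most.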
